A study of Mus musculus with 35 samples.

Results

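The complement and coagulation genes are a set of 52 mouse genes, chosen by name from a list of plasma protease cascade genes, out of 55413 Ensembl genes counted in liver. All 52 were found by name and all 52 passed the filter on low counts. RNA was taken from 21 C57Bl6 mice and sequenced from the 3′ end of transcripts. The Smyd3-ASO mice (n = 6) and the control-ASO mice (n = 6) had received a single intraperitoneal dose of the liver carcinogen diethylnitrosamine (DEN), 25 mg/kg on day 14 of life, and then 50 mg/kg of an antisense oligonucleotide (ASO), against Smyd3 or a control sequence, 2 times a week from day 133 to their harvest on day 260. The P133 mice (n = 4) had the same DEN dose, no oligonucleotide, and were harvested on day 133. The untreated mice (n = 5) had neither agent and were harvested on day 260. The labels call the DEN samples tumours with hepatocellular carcinoma and the untreated ones normal liver; the sex of the mice is not given. DEN and the oligonucleotide injections come together in both ASO groups, so against untreated mice their parts cannot be told apart, and the P133 mice differ from the untreated ones in harvest day as well as in DEN. Smyd3 encodes a lysine methyltransferase, and the comparison of Smyd3-ASO with control-ASO mice addresses its role in established DEN-induced liver tumours.

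Complement and coagulation are cascades of plasma proteins in which one protease cleaves and activates the next. The liver, mainly its hepatocytes, makes most of them and secretes them into blood, while C1q comes largely from macrophages and factor D (Cfd) largely from fat tissue. Complement is started by the classical, lectin and alternative pathways, which meet at C3 and end in the membrane attack complex. Coagulation ends in thrombin, which turns fibrinogen into fibrin, and plasmin dissolves it. Several members, the fibrinogen chains and C3 among them, are acute phase genes, which hepatocytes turn up under interleukin-6.

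Total counts per mouse were 6358080 to 20258619 in Smyd3-ASO, 6789715 to 13805881 in control-ASO, 4556484 to 6447397 in P133 and 10186780 to 13116012 in untreated mice. Levels are CPM (counts divided by the scaled library size) scaled by the trimmed mean of M values (TMM) method, and each read stands for a transcript's 3′ end, so levels are not divided by length. Smyd3 itself averaged 0.325 ± 0.288 CPM in Smyd3-ASO mice (SD, n = 6), 3.87 ± 0.597 CPM in control-ASO mice (SD, n = 6), 4.24 ± 1.17 CPM in P133 mice (SD, n = 4) and 3.81 ± 1.10 CPM in untreated mice (SD, n = 5). The hepatocyte markers Alb, Ttr, Apoa1 and others, 11 genes in all, were abundant in every mouse, as in liver, and summed to 31226 to 59648 CPM in Smyd3-ASO, 79348 to 130457 CPM in control-ASO, 53933 to 57456 CPM in P133 and 115507 to 170370.0 CPM in untreated mice. In bulk tissue, fewer hepatocytes and less RNA of a gene per hepatocyte cannot be told apart. The TMM factors were 0.568 to 0.784 in untreated mice and 0.983 to 1.42 over the DEN groups, so that comparisons with untreated livers depend on the scaling. Untreated mouse 5 stood apart, with serum amyloid Saa1 at 30504 CPM against 124 to 695 CPM in the other untreated mice. Reads of C1ra and C1rb, C1s1 and C1s2, Kng1 and Kng2, C4b and C4a, and Cfb and the overlapping Gm20547 can be shared where their 3′ ends are alike, so the split between such partners is uncertain. C1s1, C2, Hc, Masp2, F5, Fgg, Plg and Serpinc1 overlap exons of a gene on the other strand, and whether counting used the strand is not given in the sources used here.

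Fibrinogen is the precursor of the clot, and its chains, Fga, Fgb and Fgg, are encoded by neighbouring genes on chromosome 3 and are made together in hepatocytes. Their promoters are shown because the levels of the chains moved together from mouse to mouse, and their ratios stood apart between groups, as described further on. The sequences run 5′ to 3′ from 250 bases before to 50 bases after the RefSeq transcription start on the GRCm38.p6 build: Fga at chr3:83025903-83026202 on the plus strand, Fgb at chr3:83049814-83050113 on the minus strand and Fgg at chr3:83007474-83007773 on the plus strand. Capitals mark matches, on either strand, to CTGGGAA (the core of the type II interleukin-6 response element), GTTAAT (one arm of the site of HNF1, a hepatocyte transcription factor) and TTNCNNGAA (a STAT3 site; N is any base).
Fga: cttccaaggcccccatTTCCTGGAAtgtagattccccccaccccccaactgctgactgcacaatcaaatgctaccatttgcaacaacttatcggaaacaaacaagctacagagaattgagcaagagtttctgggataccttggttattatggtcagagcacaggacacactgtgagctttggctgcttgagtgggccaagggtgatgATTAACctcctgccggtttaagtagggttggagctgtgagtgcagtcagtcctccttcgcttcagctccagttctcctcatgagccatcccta
Fgb: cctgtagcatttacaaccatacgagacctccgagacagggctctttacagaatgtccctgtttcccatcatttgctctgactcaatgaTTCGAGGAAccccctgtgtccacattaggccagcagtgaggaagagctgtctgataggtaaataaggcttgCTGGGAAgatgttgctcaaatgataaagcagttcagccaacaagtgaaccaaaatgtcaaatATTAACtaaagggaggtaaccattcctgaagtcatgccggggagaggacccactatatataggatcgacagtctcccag
Fgg: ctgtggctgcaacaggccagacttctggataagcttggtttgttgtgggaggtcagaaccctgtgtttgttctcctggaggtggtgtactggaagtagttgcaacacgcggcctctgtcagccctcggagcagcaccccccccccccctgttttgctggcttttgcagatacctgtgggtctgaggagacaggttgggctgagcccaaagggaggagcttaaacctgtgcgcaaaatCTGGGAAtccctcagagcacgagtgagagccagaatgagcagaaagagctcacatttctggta
The CTGGGAA core began at position -91 in Fgb and -13 in Fgg, counted from the transcription start, and was not among these letters of Fga. GTTAAT, read on the other strand as ATTAAC, began at -43 in Fga and -29 in Fgb, and TTNCNNGAA at -234 in Fga and -162 in Fgb. None of the capitals overlap. Of 32851 mouse RefSeq promoters of this length, 11.1% held CTGGGAA, 7.1% held GTTAAT and 13% held TTNCNNGAA. Of 44 promoters of 42 of the 52 genes, the shares were 25%, 34.1% and 31.8%. The full palindromes of HNF1 and C/EBP were in none of the 44, and in 0.00913% and 0.183% of all promoters. A match is a stretch of letters and not a shown binding site.

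The 52 genes took a large share of the liver's transcripts in every group. They held 2.15% to 4.35% (median 2.75%) of all counts in Smyd3-ASO mice, 2.54% to 4.44% (median 3.33%) in control-ASO mice, 2.29% to 2.58% (median 2.46%) in P133 mice and 2.13% to 5.83% (median 2.80%) in untreated mice, and these ranges overlapped. The fibrinogen chains alone held 0.461% to 1.92% (median 0.713%) in Smyd3-ASO, 0.718% to 1.75% (median 1.08%) in control-ASO, 0.636% to 0.743% (median 0.678%) in P133 and 0.691% to 2.93% (median 1.01%) in untreated mice. In control-ASO mice the highest group mean levels were those of Fgb (4219 ± 1291 CPM, SD, n = 6), Fgg, Fga, C3, Cfb and prothrombin (F2, 1933 ± 234 CPM), and the lowest those of Cfd (1.14 ± 1.25 CPM) and properdin (Cfp, 6.80 ± 2.47 CPM).

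**Figure D1:**
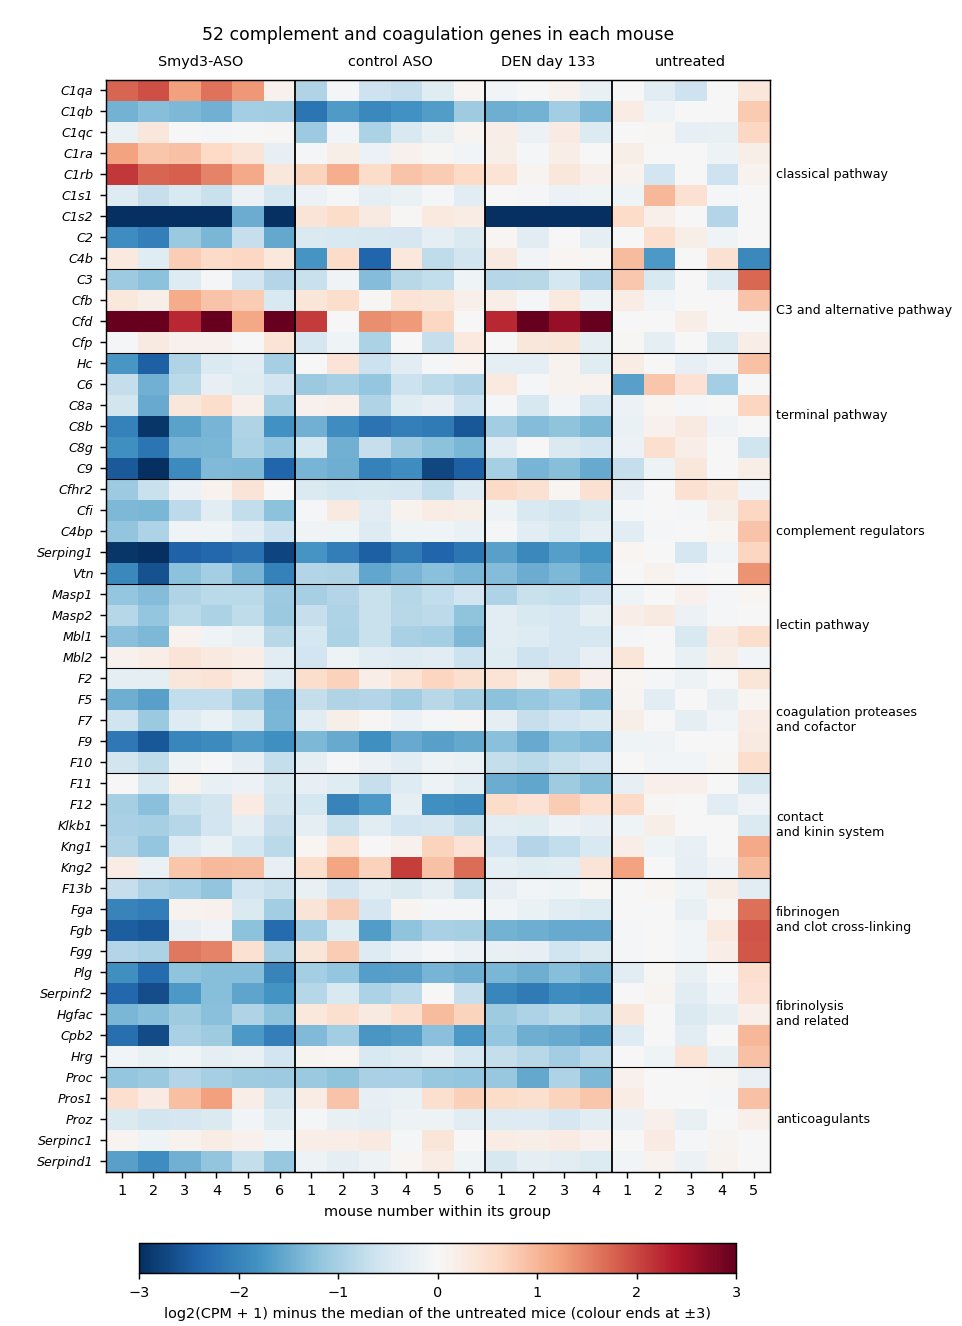
Levels of the 52 genes in every mouse, as log2(CPM + 1) minus the median of the untreated mice; columns are mice, ordered Smyd3-ASO, control-ASO, P133 and untreated, lines are genes ordered by role, and the colours end at 3 in either direction. On this TMM scale most lines are lower in the DEN groups than in the untreated mice, while Cfd is higher and C1s2 and Serpinf2 are lowest in Smyd3-ASO and P133 mice. Untreated mouse 5 stands above the other untreated mice in the fibrinogen lines.

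Between Smyd3-ASO and control-ASO livers the set as a whole did not move in 1 direction. With edgeR's quasi-likelihood test and Benjamini-Hochberg adjustment over 15297 genes, at an adjusted p under 0.05, 5 of the 52 genes rose and 11 fell, against 13.3% of all genes tested that rose and 12.9% that fell. The 16 called make 30.8% of the 52, near the 26.1% of all genes. The median log2 change was -0.17 over the 52 genes and 0.01 over all genes. In 8 of the 52, 1 higher and 7 lower, no Smyd3-ASO mouse overlapped a control-ASO mouse; 11.1% (5.27% higher and 5.83% lower) of all genes did so. Without Smyd3-ASO mouse 1 the number that rose was 3, and without control-ASO mouse 5 the number that fell was 7. The 11 that fell were Hgfac, Serpind1, C1s2, Cfi, Serpinf2, Kng1, C2, F7, F13b, F9 and Hc, and the 5 that rose were C1qa, Cfd, Mbl2, C1ra and C1rb.

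In the classical pathway 3 of 9 genes rose and 2 fell, against 13.3% and 12.9% of all genes. In roles of 4 or 5 genes, as most below are, 1 call is near the 26.1% of all genes called. C1qa, the A chain of the C1q recognition molecule (ENSMUSG00000036887, chr4:136895917-136898803, minus strand, mm10), had 69.3 to 243 CPM (median 177) in Smyd3-ASO mice, against 33.4 to 65.9 CPM (median 45.0) in control-ASO mice, and rose (log2 1.82, SE 0.27, adjusted p = 3.96e-04). The lowest Smyd3-ASO mouse was mouse 6, at 69.3 CPM. The B and C chains did not pass: C1qb averaged 22.9 ± 3.13 CPM in Smyd3-ASO and 16.7 ± 5.05 CPM in control-ASO mice (SD, n = 6 each; log2 0.45, adjusted p = 0.0779) and C1qc 40.2 ± 5.11 CPM and 29.8 ± 9.57 CPM (log2 0.42, adjusted p = 0.121). The ratio of C1qa to C1qb counts, a description chosen after the values were seen, was 2.61 to 10.8 in Smyd3-ASO, 2.52 to 3.73 in control-ASO, 2.53 to 3.07 in P133 and 0.728 to 1.16 in untreated mice, and Smyd3-ASO mouse 6, at 2.61, lay among the control-ASO mice while the other 5 were at 5.80 or above. A summed level of 15 Kupffer cell and macrophage markers was 382 to 563 CPM in Smyd3-ASO and 223 to 507 CPM in control-ASO mice. Taken singly, 3 of these markers rose and 1 fell (all genes: 13.3% and 12.9%). Their part in the C1q values was not tested.

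**Figure D2:**
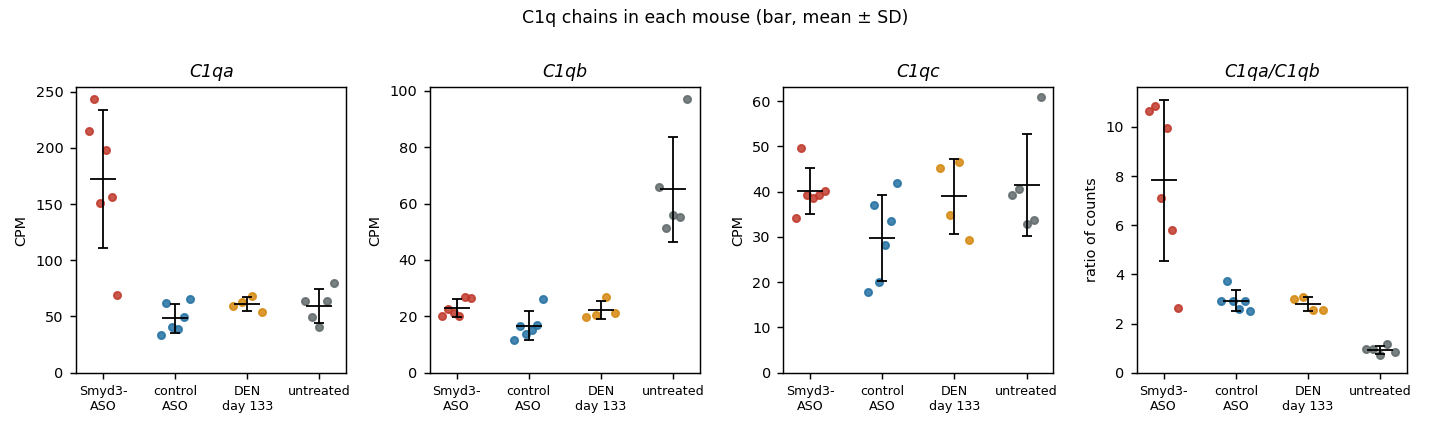
Levels of C1qa, C1qb and C1qc in CPM and the ratio of C1qa to C1qb counts in every mouse (points), with the mean and SD of each group (line and bar), for Smyd3-ASO, control-ASO, P133 and untreated mice. Mean C1qa is highest in Smyd3-ASO mice, C1qb is highest in untreated mice, and the ratio lies between 0.728 and 1.16 in untreated mice and reaches 10.8 in Smyd3-ASO mice.

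C1s2 is a mouse gene for the C1s protease, which cleaves C4 and C2 (ENSMUSG00000079343, chr6:124624625-124636085, minus strand, mm10). It had 0 to 4.68 CPM (median 0.329) in Smyd3-ASO mice, against 15.2 to 22.4 CPM (median 18.3) in control-ASO mice, and fell (log2 -4.18, SE 0.72, adjusted p = 0.00162). Smyd3-ASO mouse 5, at 4.68 CPM, was the highest of its group and lay below every control-ASO mouse, and mouse 6 had no count, which allows up to 0.379 CPM. Without Smyd3-ASO mouse 5 the log2 change of C1s2 was -5.84. The other copy, C1s1, had 144 ± 20.1 CPM in Smyd3-ASO and 178 ± 15.3 CPM in control-ASO mice (log2 -0.31, adjusted p = 0.0705). Of the 50-base stretches in the last 500 bases of the C1s2 transcript, 18% also occur in C1s1. The ratio of C1s2 to C1s1 counts was 0 to 0.0262 in Smyd3-ASO and 0.0872 to 0.114 in control-ASO mice. The paired proteases C1ra (log2 0.67, SE 0.20, adjusted p = 0.0242) and C1rb (log2 0.77, SE 0.24, adjusted p = 0.0277) rose, at 591 ± 185 CPM and 390.2 ± 145 CPM in Smyd3-ASO, against 370.0 ± 33.3 CPM and 228 ± 32.7 CPM in control-ASO mice; both calls were lost in at least 1 alternative. C2, the source of the classical C3 convertase's protease, had 19.0 to 50.4 CPM (median 29.2) in Smyd3-ASO mice, against 57.3 to 66.8 CPM (median 59.4) in control-ASO mice, and fell with no overlap (log2 -0.96, SE 0.20, adjusted p = 0.00347). C4b, whose counts can be shared with C4a, did not pass (log2 0.82, adjusted p = 0.169).

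In the lectin pathway 1 of 4 genes changed (all genes: 26.1%). Mbl2, a mannose-binding lectin that recognises microbial sugars, had 386 to 633 CPM (median 557) in Smyd3-ASO mice, against 308 to 437 CPM (median 378) in control-ASO mice, and rose (log2 0.54, SE 0.15, adjusted p = 0.0141), with overlapping mice. Mbl1, Masp1 and Masp2 did not pass, with log2 changes of 0.38, -0.24 and -0.10. Of C3 and the alternative pathway, 1 of 4 changed (all genes: 26.1%). C3, where all complement pathways meet, had 1538 to 3453 CPM (median 2201) in Smyd3-ASO mice, against 1469.9 to 3388 CPM (median 2219.5) in control-ASO mice (log2 -0.09, SE 0.25, adjusted p = 0.819), and the groups overlapped almost entirely. Factor B (Cfb, log2 0.22) and properdin (Cfp, log2 0.47) did not pass either. Cfd, the protease that activates factor B, ranged most widely, with 1.25 to 102 CPM (median 23.6) in Smyd3-ASO mice, against 0 to 3.27 CPM (median 0.982) in control-ASO mice (log2 4.91, SE 1.16, adjusted p = 0.00965). The groups overlapped, and control-ASO mice 2 and 6 had no count, which allows up to 0.212 and 0.243 CPM. The log2 change of Cfd was 4.25 without Smyd3-ASO mouse 6, its highest mouse, and 5.71 without control-ASO mouse 1. Because Cfd is known from fat, 9 adipocyte markers were summed. They came to 809 to 3593 CPM in Smyd3-ASO and 794 to 5025 CPM in control-ASO mice, with Lep at 0 in every Smyd3-ASO mouse. A sum is weighted to its most abundant markers, so the markers were also read singly. Of the 8 tested, 1 rose and 1 fell (all genes: 13.3% and 12.9%), and their median log2 change was 0.80. The part of these markers in the Cfd values was not tested.

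Of the 6 terminal pathway genes only Hc, which encodes C5, passed, and it fell: it averaged 419 ± 197 CPM in Smyd3-ASO and 793 ± 186 CPM in control-ASO mice (SD, n = 6 each; log2 -0.93, SE 0.31, adjusted p = 0.0386), a call lost in some alternatives. C6, the C8 chains C8a, C8b and C8g, and C9, the pore-forming last component, had log2 changes of 0.28, 0.09, 0.34, -0.42 and -0.06 and did not pass. Of the 5 regulators 1 fell (all genes: 12.9%). Factor I (Cfi), the protease that inactivates C3b and C4b, had 103 to 210.1 CPM (median 133) in Smyd3-ASO mice, against 215 to 324 CPM (median 293) in control-ASO mice (log2 -1.02, SE 0.19, adjusted p = 0.00163), and no mice overlapped. The C1 inhibitor gene Serping1 (log2 -0.49, adjusted p = 0.0688), C4bp (log2 -0.33), vitronectin (Vtn, log2 -0.42) and the factor H-related gene Cfhr2 (log2 0.34) did not pass.

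Among the coagulation proteases and their cofactor, 2 of 5 fell (all genes: 12.9%), both by less than 1 on the log2 scale. Factor VII (F7), which starts the tissue factor pathway, averaged 46.4 ± 13.7 CPM in Smyd3-ASO and 70.3 ± 8.88 CPM in control-ASO mice (log2 -0.61, SE 0.19, adjusted p = 0.0289), and factor IX (F9), 73.4 ± 14.1 CPM and 99.8 ± 11 CPM (log2 -0.45, SE 0.14, adjusted p = 0.0333). Both calls were lost in some alternatives. Prothrombin (F2), factor V (F5) and factor X (F10) did not pass (log2 -0.47, -0.24 and -0.20). In the contact and kinin system 1 of 5 changed (all genes: 26.1%). Kng1, the precursor of bradykinin, had 383 to 755 CPM (median 546) in Smyd3-ASO mice, against 865 to 1367 CPM (median 1048) in control-ASO mice, and fell with no overlap (log2 -0.94, SE 0.19, adjusted p = 0.00284). Kng2, whose 3′ end shares sequence with it, had a log2 change of -0.78 and an adjusted p of 0.0723. Factor XI (F11), factor XII (F12) and prekallikrein (Klkb1) did not pass (log2 0.16, 0.64 and -0.21).

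Of the anticoagulants 1 of 5 fell, and of the genes of fibrinolysis and related proteases 2 of 5 (all genes: 12.9%). Hgfac, a factor XII-like protease that activates hepatocyte growth factor (ENSMUSG00000029102, chr5:35041509-35048461, plus strand, mm10), had 57.3 to 80.4 CPM (median 63.1) in Smyd3-ASO mice, against 181 to 292 CPM (median 213) in control-ASO mice, and fell (log2 -1.75, SE 0.15, adjusted p = 7.99e-06), the smallest adjusted p of the 52 genes in this comparison. Serpinf2, α2-antiplasmin, the main inhibitor of plasmin (ENSMUSG00000038224, chr11:75431732-75439591, minus strand, mm10), had 133 to 345 CPM (median 249) in Smyd3-ASO mice, against 433 to 843 CPM (median 509) in control-ASO mice (log2 -1.26, SE 0.24, adjusted p = 0.00181). Serpind1, heparin cofactor II, a thrombin inhibitor (ENSMUSG00000022766, chr16:17331371-17343575, plus strand, mm10), had 99 to 222 CPM (median 146) in Smyd3-ASO mice, against 294 to 424 CPM (median 331) in control-ASO mice (log2 -1.23, SE 0.19, adjusted p = 4.52e-04). No mice overlapped for any of these. The other anticoagulant genes did not pass: antithrombin (Serpinc1) had 1102 ± 97.4 CPM in Smyd3-ASO and 1189 ± 123 CPM in control-ASO mice (log2 -0.12), and protein C (Proc), protein S (Pros1) and protein Z (Proz) had log2 changes of 0.04, 0.17 and -0.20. Neither did plasminogen (Plg, -0.23), the fibrinolysis inhibitor Cpb2 (-0.24) or the plasma glycoprotein Hrg (-0.02). Hepatocyte markers moved in the same direction as these falls, with summed levels of 31226 to 59648 CPM in Smyd3-ASO and 79348 to 130457 CPM in control-ASO mice, and their part in the falls was not tested.

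**Figure D3:**
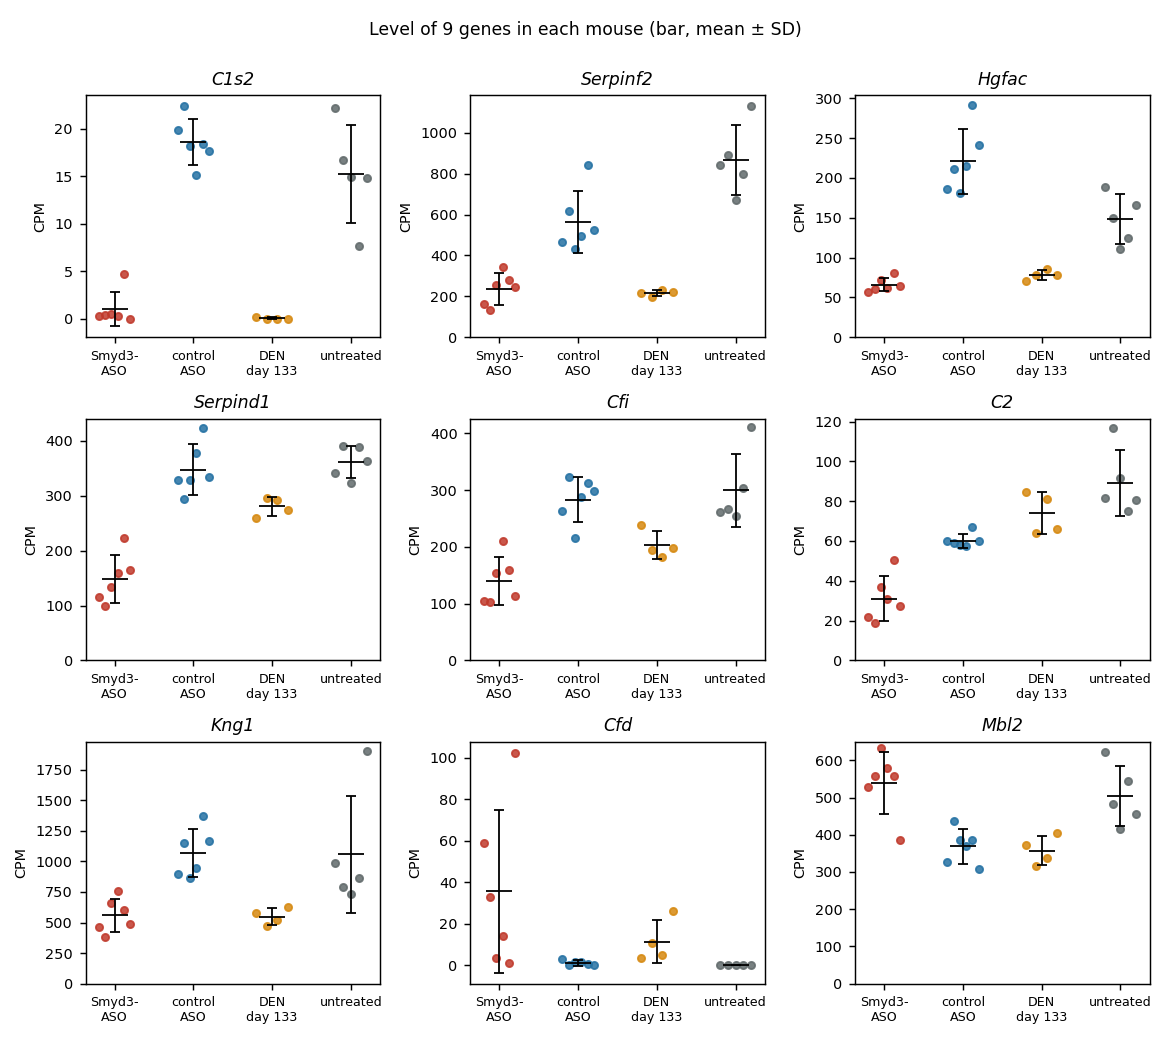
Levels in CPM of C1s2, Serpinf2, Hgfac, Serpind1, Cfi, C2, Kng1, Cfd and Mbl2 in every mouse (points) with each group's mean and SD (line and bar), for Smyd3-ASO, control-ASO, P133 and untreated mice. On this TMM scale C1s2, Serpinf2 and Hgfac lie lower in every Smyd3-ASO and P133 mouse than in any control-ASO or untreated mouse. Cfd is at 0.156 CPM or less in the untreated mice.

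No fibrinogen chain passed the test, while the ratios between the chains stood apart. Fgb, the β chain, had 1429 to 7719.7 CPM (median 2618) in Smyd3-ASO mice, against 2596 to 6529.8 CPM (median 4157) in control-ASO mice (log2 -0.15, SE 0.44, adjusted p = 0.824), and the groups overlapped. Fga averaged 1519 ± 906 CPM in Smyd3-ASO and 2612 ± 771 CPM in control-ASO mice (SD, n = 6 each; log2 -0.79, adjusted p = 0.135) and Fgg 3566 ± 2867 CPM and 2641 ± 869.6 CPM (log2 0.43, adjusted p = 0.525). The ratio of Fgg to Fga counts, a description chosen after the values were seen, was 2.28, 2.26, 2.92, 2.66, 1.95 and 1.06 in Smyd3-ASO mice 1 to 6, against 0.865 to 1.12 in control-ASO, 0.856 to 1.02 in P133 and 0.993 to 1.22 in untreated mice. Only Smyd3-ASO mouse 6 lay among the other groups. Within its group this mouse also had the highest Smyd3 level (6 counts, 0.757 CPM) and the lowest total count (6358080), from 1 library. The part of these in its ratios was not tested. The ratio of Fgg to Fgb was 0.724 to 1.04 in Smyd3-ASO, 0.519 to 0.764 in control-ASO, 0.546 to 0.678 in P133 and 0.272 to 0.292 in untreated mice, so that all 16 DEN mice lay above all 5 untreated ones. Ratios within a library do not depend on the scaling. The cross-linking factor XIII B subunit (F13b) fell (log2 -0.42, SE 0.13, adjusted p = 0.0316), at 99.8 ± 16.2 CPM in Smyd3-ASO and 133 ± 15.3 CPM in control-ASO mice, a call lost in some alternatives.

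The chains followed each other from mouse to mouse within groups. As a description over the 21 mice, after subtracting group means on the log scale, Pearson's correlation was 0.951 for Fga with Fgb, 0.935 for Fga with Fgg and 0.981 for Fgb with Fgg; the points share their libraries and their depth. The highest Fgb level of all, 30867 CPM, was in untreated mouse 5, against 8195, 8357, 7884 and 10231 CPM in untreated mice 1 to 4. In the Smyd3-ASO group, mice 3 and 4 had 7076 and 7719.7 CPM and the others at most 3559 CPM. The acute phase gene Saa1, read after these values were seen, was also highest in these mice of their groups: 6550.4 and 4617 CPM in Smyd3-ASO mice 3 and 4, against 77.3 to 1150.5 CPM in the other Smyd3-ASO mice, and 30504 CPM in untreated mouse 5. In the control-ASO group the mice differed: Saa1 was highest in mouse 1, at 1395 CPM, against 353 CPM in mouse 2, while Fgb was highest in mouse 2, at 6529.8 CPM, against 4144 CPM in mouse 1. Its part in the fibrinogen levels was not tested.

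**Figure D4:**
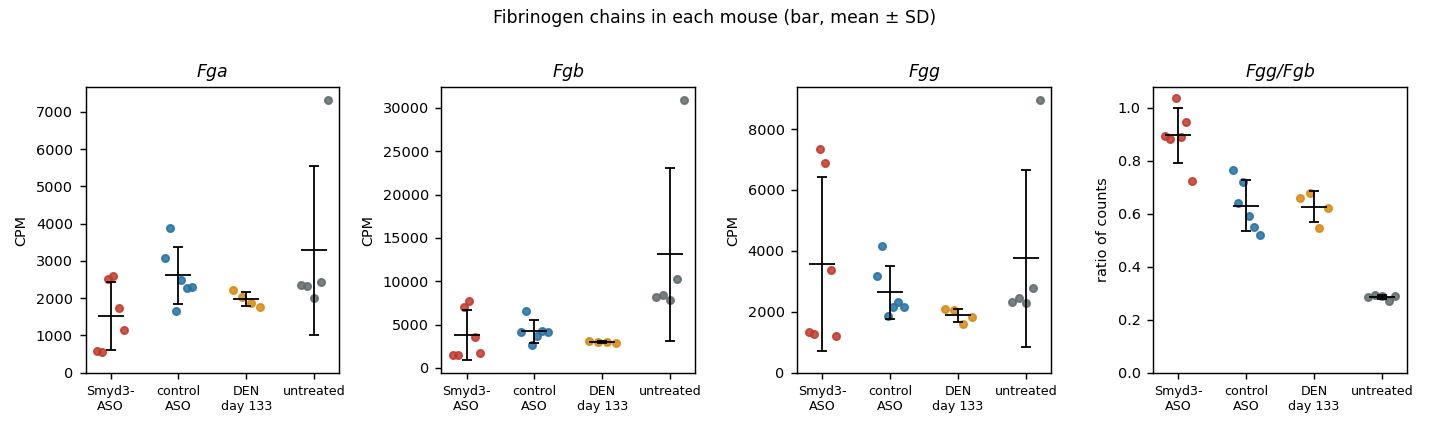
Levels of Fga, Fgb and Fgg in CPM and the ratio of Fgg to Fgb counts in every mouse (points), with each group's mean and SD (line and bar), for Smyd3-ASO, control-ASO, P133 and untreated mice. Untreated mouse 5 is the highest point for Fgb, at 30867 CPM, and the ratio separates every DEN mouse, at 0.519 or more, from every untreated mouse, at 0.292 or less.

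Against untreated livers of the same harvest day, control-ASO livers had lower levels of many of these genes. Of the 52, 4 rose and 24 fell, against 23.7% and 22.2% of all genes tested (45.9% in either direction); the median log2 change was -0.45 over the 52 genes and 0.06 over all genes (edgeR's quasi-likelihood test, Benjamini-Hochberg adjustment over all genes). In 17 of the 52, 1 higher and 16 lower, the mice of the groups did not overlap, against 27.6% (13.8% higher and 13.8% lower) of all genes. The direction of the calls depends on the scaling: with library totals in place of TMM the 52 genes counted 22 risen and 8 fallen. The medians then moved to 0.90 over all genes and 0.40 over the 52 genes, so that of the 52 stayed the lower. The 8 that fell under both scalings were F9, C8b, Serping1, C1qb, C9, Plg, Cpb2 and Vtn. Under library totals 9 called genes, Masp1, F5, Cfhr2, C2, Klkb1, Serpinf2, Mbl2, F13b and C1s1, turned to the other sign. Levels and changes below are on the TMM scale. Summed hepatocyte markers, at 79348 to 130457 CPM in control-ASO and 115507 to 170370.0 CPM in untreated mice, moved with the falls, and their part was not tested.

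Serping1, the C1 inhibitor, which also restrains the contact system, had 409 to 659.7 CPM (median 508) in control-ASO mice, against 2340.1, 2249, 1593, 2117 and 3523 CPM in untreated mice, and fell (log2 -2.22, SE 0.21, adjusted p = 2.03e-06; -1.38 with library totals). C8b, the β chain of C8, had 39.9 to 87.4 CPM (median 55.4) in control-ASO mice, against 205, 259.6, 285, 221 and 238 CPM in untreated mice (log2 -2.04, SE 0.18, adjusted p = 9.87e-07; -1.19 with library totals). F9, the factor missing in haemophilia B, had 82.0 to 115 CPM (median 102) in control-ASO mice, against 267, 274, 294, 296 and 354 CPM in untreated mice (log2 -1.57, SE 0.12, adjusted p = 4.71e-07; -0.72 with library totals). No control-ASO mouse reached the lowest untreated mouse for any of these. Proc, the precursor of an anticoagulant protease, had 112 to 132 CPM (median 120.0) in control-ASO mice, against 284, 261, 257, 269 and 226 CPM in untreated mice (log2 -1.09, SE 0.11, adjusted p = 3.14e-06), but -0.25 with library totals, where its call was lost.

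Fgb averaged 4219 ± 1291 CPM in control-ASO mice (SD, n = 6), against 8195, 8357, 7884, 10231 and 30867 CPM in untreated mice (log2 -1.64, SE 0.37, adjusted p = 0.00256); without untreated mouse 5 the log2 change was -1.04, and with library totals -0.75, where the call was lost. Fga (-0.33) and Fgg (-0.51) did not pass. C3 had 1469.9 to 3388 CPM (median 2219.5) in control-ASO mice, against 6379.7, 2636, 3623, 2771 and 12037 CPM in untreated mice (log2 -1.17, SE 0.38, adjusted p = 0.0227), and without untreated mouse 5 its log2 change was -0.66 and the call was lost. The C3 call was also lost with library totals (log2 -0.31), with no filter and with the replicate number as a block. C9 (-1.89), Plg (-1.40), Cpb2 (-1.60), Vtn (-1.60) and C1qb (-1.96) fell by more than 1 on the log2 scale. On the TMM scale all 4 lectin pathway genes fell (all genes: 22.2%), Mbl1 by the most (log2 -0.99, SE 0.18, adjusted p = 5.15e-04). With library totals Masp1 and Mbl2 turned to the other sign, and Mbl1 (-0.15) and Masp2 (-0.08) did not pass.

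The 4 that rose were C1rb (log2 0.93, SE 0.17, adjusted p = 4.84e-04), F2 (log2 0.45, SE 0.16, adjusted p = 0.0368), Hgfac (log2 0.58, SE 0.17, adjusted p = 0.011) and Cfd. C1rb averaged 228 ± 32.7 CPM in control-ASO and 119.5 ± 29.4 CPM in untreated mice, and its ratio to C1ra counts was 0.587 to 0.688 against 0.242 to 0.362. Hgfac averaged 221 ± 40.9 CPM in control-ASO and 148 ± 31.4 CPM in untreated mice. For Cfd the 5 untreated mice together held 1 count, at 0.156 CPM in mouse 3, and the other 4, at 0, allow up to 0.322 to 0.435 CPM each. The ratio of summed levels was 1097 (197 to 43336) in Smyd3-ASO over untreated mice, 45.5 (7.94 to 1819) in control-ASO over untreated mice and 486 (86.5 to 19266) in P133 over untreated mice, with exact 95% intervals that cover counting error only. The Cfd call in control-ASO over untreated mice (adjusted p = 0.0208) was lost without untreated mouse 1, 2 or 3, with no filter (adjusted p = 0.0526) and with all 4 groups in 1 fit (adjusted p = 0.125). The summed adipocyte markers were 794 to 5025 CPM in control-ASO and 1369 to 5491 CPM in untreated mice, with Lep at 0 in all untreated mice. Taken singly, 8 were tested over untreated mice. In control-ASO mice 3 rose and 0 fell (median log2 1.22, all genes 23.7% and 22.2%). In Smyd3-ASO mice 4 rose and 1 fell (median 2.12, all genes 24.4% and 23.2%). In P133 mice 5 rose and 0 fell (median 2.09, all genes 15.1% and 16.6%). The sums went the other way. Their medians were 1773 CPM in Smyd3-ASO, 1983 CPM in control-ASO, 4073 CPM in P133 and 4982.5 CPM in untreated mice. A sum is weighted to its most abundant markers, and here it did not follow the markers taken singly. The mean level of Adipoq, the defining fat hormone, was 0.445 CPM in Smyd3-ASO, 0.351 CPM in control-ASO, 2.37 CPM in P133 and 0.0622 CPM in untreated mice. The part of these markers in the Cfd values was not tested.

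Smyd3-ASO livers also had lower levels of many of these genes than untreated livers. Of the 52, 4 rose and 32 fell, against 24.4% and 23.2% of all genes (47.6% in either direction); the untreated mice are shared with the preceding comparison. The median log2 change was -0.75 over the 52 genes and 0.06 over all genes. In 25 of the 52, 2 higher and 23 lower, the groups did not overlap, against 28.4% (13.9% higher and 14.6% lower) of all genes. With library totals the medians moved to 0.96 over all genes and 0.13 over the 52 genes. The counts were then 16 risen and 13 fallen, and 9 called genes turned to the other sign (F13b, C1s1, Klkb1, F7, Proz, F10, C4bp, F12 and Hrg). F9 had 49.8 to 90.1 CPM (median 76.6) in Smyd3-ASO mice, below every untreated mouse (log2 -2.04, SE 0.17, adjusted p = 1.28e-06; -1.16 with library totals). Serping1 had 224 to 472 CPM (median 374) in Smyd3-ASO mice (log2 -2.72, SE 0.25, adjusted p = 3.52e-06; -1.87), with no overlap. C1qb had 19.9 to 27.0 CPM (median 21.8) in Smyd3-ASO mice, against 65.9, 51.4, 56.0, 55.4 and 96.9 CPM in untreated mice (log2 -1.53, SE 0.18, adjusted p = 1.58e-05), while C1qa rose (log2 1.51, SE 0.28, adjusted p = 6.48e-04), and C1qc did not pass (log2 -0.07, adjusted p = 0.754); with library totals the changes were -0.63 for C1qb and 2.42 for C1qa. Summed macrophage markers were 382 to 563 CPM in Smyd3-ASO and 240.4 to 436 CPM in untreated mice, with Gpnmb at 0 in all untreated mice. Taken singly these markers split: 8 of 15 rose and 5 fell. Proc had 117 to 143 CPM (median 123) in Smyd3-ASO mice (log2 -1.06, SE 0.12, adjusted p = 1.68e-05), but -0.18 with library totals, where its call was lost. On the TMM scale all 5 genes of fibrinolysis and related proteases fell: Plg -1.65, Serpinf2 -1.89, Cpb2 -1.85, Hrg -0.51 and Hgfac -1.19; with library totals Hrg turned to 0.42 and the call of Hgfac was lost (-0.32).

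For the 7 genes that fell without overlap in Smyd3-ASO over control-ASO mice, the log2 changes of both ASO groups over untreated mice stand side by side as follows; the untreated mice are shared. C1s2 had -3.90 in Smyd3-ASO and 0.28 in control-ASO mice, Serpinf2 -1.89 and -0.62, and Hgfac -1.19 and 0.58. Serpind1 had -1.30 in Smyd3-ASO and -0.06 in control-ASO mice, Cfi -1.11 and -0.08, C2 -1.54 and -0.57, and Kng1 -0.94 and 0.01. All 7 Smyd3-ASO changes passed, and of the control-ASO changes those of Serpinf2, Hgfac and C2 did. These changes are on the TMM scale. With library totals the median of all genes moved from 0.06 to 0.96 in Smyd3-ASO and from 0.06 to 0.90 in control-ASO mice. The Smyd3-ASO call of Hgfac was then lost, and the control-ASO changes of Serpinf2 and C2 turned to the other sign. Without untreated mouse 5 the counts over untreated livers were 4 risen and 25 fallen in Smyd3-ASO and 4 risen and 24 fallen in control-ASO mice, and in Smyd3-ASO mice the calls of C3 (log2 -0.76) and Fgb (log2 -1.20) were lost. Both of these Smyd3-ASO calls were also lost with library totals and with no filter, and that of C3 with the replicate number as a block.

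**Figure D5:**
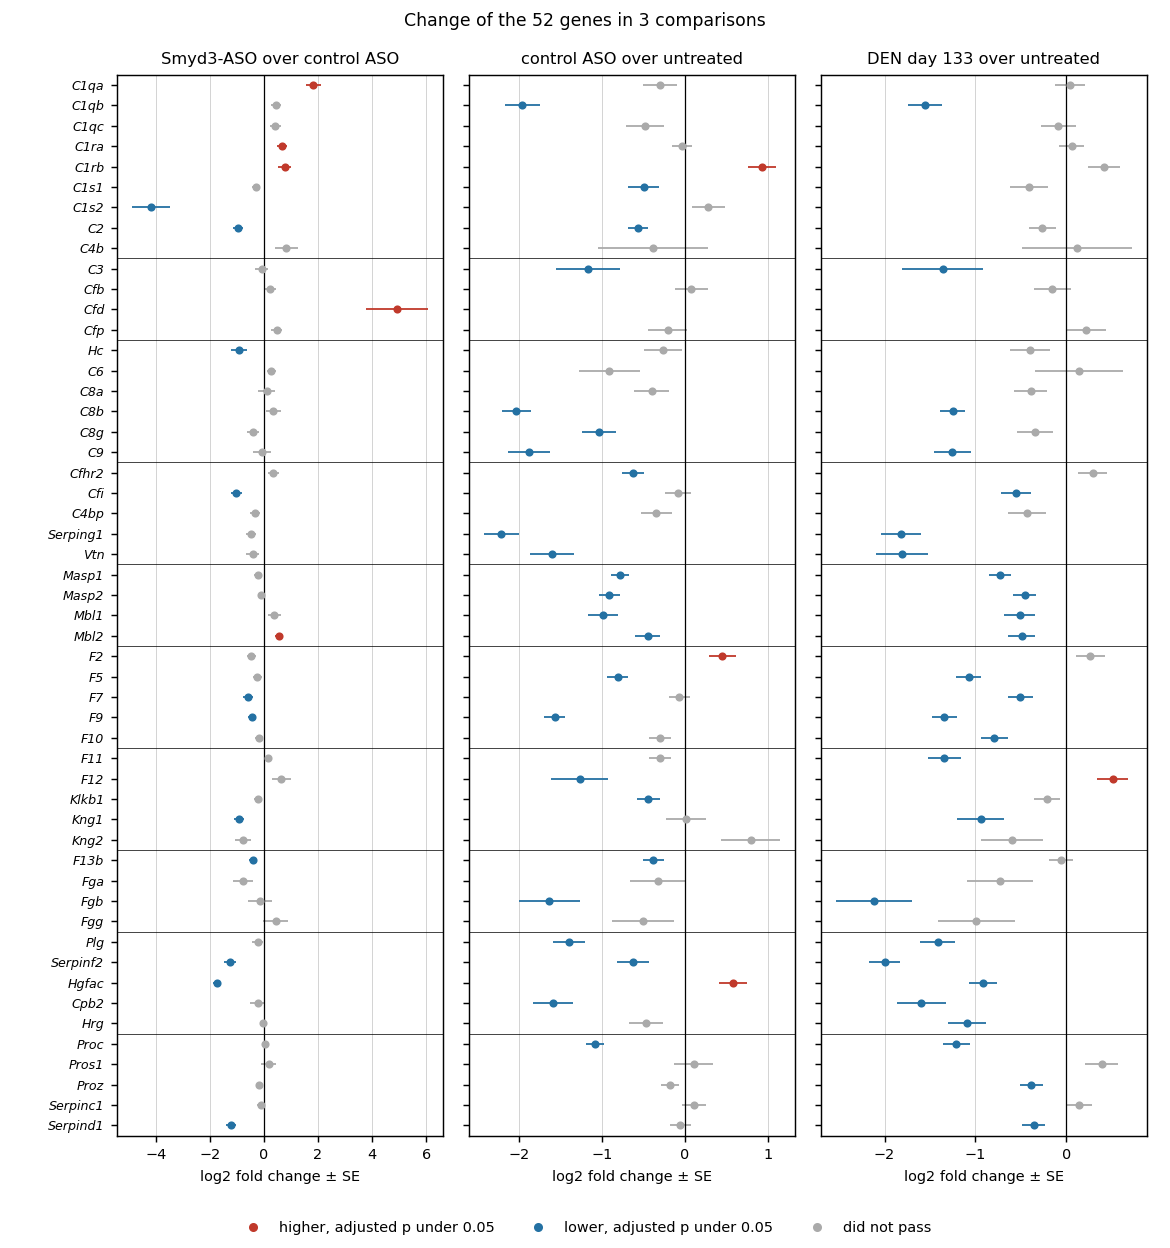
Log2 changes of the 52 genes with their standard errors (points and bars) in Smyd3-ASO over control-ASO, control-ASO over untreated and P133 over untreated mice, ordered by role; the horizontal axes differ between panels. Cfd over untreated mice and C1s2 in P133 over untreated mice are not drawn because 1 of the groups holds a single count. On this TMM scale most points lie below 0 in both panels over untreated mice, with medians of -0.45 and -0.50, and on both sides of 0 in Smyd3-ASO over control-ASO mice.

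P133 livers, which had DEN but no oligonucleotide, also had lower levels than untreated livers: 2 of the 52 genes rose and 27 fell, against 15.1% and 16.6% of all genes (31.6% in either direction). The median log2 change was -0.50 over the 52 genes and 0.00 over all genes, and in 28 of the 52, 1 higher and 27 lower, the groups did not overlap, against 27.1% (12.6% higher and 14.5% lower) of all genes. With library totals the medians moved to 0.59 over all genes and 0.08 over the 52 genes. The counts were then 11 risen and 14 fallen, and F7, Masp2, Cfi, Mbl2, Proz, Mbl1 and Serpind1 turned to the other sign. Without untreated mouse 5 the counts were 5 risen and 29 fallen. Summed hepatocyte markers were 53933 to 57456 CPM in P133 and 115507 to 170370.0 CPM in untreated mice, and their part was not tested.

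C1s2 was all but missing from P133 livers, with 0.210, 0, 0 and 0 CPM in P133 mice, against 22.2, 16.7, 14.9, 7.68 and 14.8 CPM in untreated mice. Only mouse 1 of P133 had a count, and the other 3, at 0, allow up to 0.665 CPM. The ratio of summed levels was 339-fold lower in P133 than in untreated mice, with an exact 95% interval of 60.6 to 13413 that covers counting error only (adjusted p = 5.10e-07). C1s1 averaged 189 ± 10.1 CPM in P133 and 252 ± 91.6 CPM in untreated mice (log2 -0.41, adjusted p = 0.15). Serpinf2 had 217, 195, 233 and 221 CPM in P133 mice, against 843, 889, 669, 800.0 and 1133 CPM in untreated mice, and fell (log2 -2.00, SE 0.17, adjusted p = 1.32e-06; -1.41 with library totals), with no overlap. F9 had 123, 102, 125 and 117 CPM in P133 mice (log2 -1.34, SE 0.14, adjusted p = 5.74e-06) and C8b 114, 95.5, 103 and 93.4 CPM in P133 mice (log2 -1.25, SE 0.14, adjusted p = 1.21e-05), all below the untreated mice. Fgb had 3151, 3013, 2941 and 2925 CPM in P133 mice and fell (log2 -2.12, SE 0.42, adjusted p = 0.00294; -1.52 without untreated mouse 5), and C3 had 2011, 2049, 2496 and 1966 CPM in P133 mice and fell (log2 -1.36, SE 0.45, adjusted p = 0.0421), a call lost when any P133 mouse or untreated mouse 1 was left out. The C3 call was also lost with library totals (log2 -0.77) and with no filter. The 2 that rose were Cfd, with 3.78, 11, 5.10 and 26.0 CPM in P133 mice, and factor XII (F12), which starts the contact system, at 422 ± 43.4 CPM in P133 and 297 ± 73.0 CPM in untreated mice (log2 0.51, SE 0.17, adjusted p = 0.0318). The F12 call was lost without P133 mouse 1, 3 or 4, without untreated mouse 2, 3 or 4, and with all 4 groups in 1 fit (adjusted p = 0.274).

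On the TMM scale C1s2, Serpinf2 and Hgfac parted the mice in the same way. Every Smyd3-ASO and P133 mouse was lower than every control-ASO and untreated mouse. Hgfac had 71.1, 78.2, 85.5 and 77.9 CPM in P133 mice, against 189, 150.3, 111, 125 and 166 CPM in untreated mice. The lowest control-ASO or untreated mouse stood above the highest Smyd3-ASO or P133 mouse by 1.64-fold for C1s2, 1.26-fold for Serpinf2 and 1.29-fold for Hgfac. This pattern was looked for after the values were seen, and 176 of the 15297 genes tested showed it in either direction. It depends on the scaling, and relative to library totals it did not hold for Hgfac and Serpinf2. Untreated mouse 3 had 711 Hgfac counts of 11314126 in all, and P133 mouse 3 had 386 of 4556484. For Serpinf2, untreated mouse 3 had 4301 counts of 11314126, and Smyd3-ASO mouse 4 had 7810 of 20258619.

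Over the DEN livers harvested on day 133, control-ASO livers had 11 of the 52 genes higher and 8 lower, against 14.4% and 12.6% of all genes (27% in either direction), and 17, 10 higher and 7 lower, did not overlap, against 21.3% (11.3% higher and 10% lower) of all genes. Age and oligonucleotide injections differ together here and cannot be told apart. The median log2 change was 0.01 over the 52 genes and 0.03 over all genes. With library totals these medians were 0.26 and 0.28, and the counts were 21 risen and 5 fallen. C1s2 had 15.2 to 22.4 CPM (median 18.3) in control-ASO mice, against 0.210, 0, 0 and 0 CPM in P133 mice, a ratio of summed levels of 405 (exact 95% interval 72.6 to 16022, counting error only; adjusted p = 2.24e-08). Hgfac had 181 to 292 CPM (median 213) in control-ASO mice, against 71.1, 78.2, 85.5 and 77.9 CPM in P133 mice, and rose (log2 1.5, SE 0.15, adjusted p = 1.77e-05). Serpinf2 (1.38), Kng2 (1.40), F11 (1.05) and Kng1 (0.96) rose as well. C6, a component of the membrane attack complex, had 58.7 to 84.1 CPM (median 67.7) in control-ASO mice, against 162, 127, 143 and 142 CPM in P133 mice, and fell (log2 -1.05, SE 0.13, adjusted p = 7.19e-05). Cfhr2 had 41.7 to 53.1 CPM (median 49.0) in control-ASO mice, against 104, 95.9, 73.3 and 95.6 CPM in P133 mice (log2 -0.92, SE 0.12, adjusted p = 1.10e-04), without overlap, and F12 fell by 1.78 on the log2 scale. Cfd had 0 to 3.27 CPM (median 0.982) in control-ASO mice, against 3.78, 11, 5.10 and 26.0 CPM in P133 mice, and fell without overlap (log2 -3.32, SE 0.94, adjusted p = 0.0303), a call lost without control-ASO mouse 4 or 5, without P133 mouse 2 or 4, and with no filter. C3 (0.20) and Fgb (0.49) did not pass. C8b (-0.78) and C8g (-0.69) fell with C6, so that 3 of 6 terminal pathway genes were lower; with library totals the call of C8g was lost (log2 -0.45).

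Smyd3-ASO livers over P133 livers had 5 of the 52 genes higher and 9 lower, against 13.1% and 11.7% of all genes (24.8% in either direction), and 12, 3 higher and 9 lower, did not overlap, against 19.3% (9.8% higher and 9.47% lower) of all genes; the P133 mice are shared with the preceding comparison. The medians were -0.13 over the 52 genes and 0.05 over all genes. With library totals these medians were 0.14 and 0.34, and the counts were 11 risen and 7 fallen. F11, the contact factor that activates factor IX, had 23.1 to 35.0 CPM (median 28.3) in Smyd3-ASO mice, against 10.9, 10.3, 15.1 and 12.8 CPM in P133 mice, and rose (log2 1.21, SE 0.18, adjusted p = 8.49e-04). C1qa had 69.3 to 243 CPM (median 177) in Smyd3-ASO mice, against 59.5, 62.8, 68.2 and 53.9 CPM in P133 mice (log2 1.49, SE 0.28, adjusted p = 0.00332). C2 had 19.0 to 50.4 CPM (median 29.2) in Smyd3-ASO mice, against 84.7, 64.2, 81.3 and 66.1 CPM in P133 mice, and fell (log2 -1.26, SE 0.24, adjusted p = 0.00348). F13b had 77.9 to 119 CPM (median 102) in Smyd3-ASO mice, against 150.3, 169, 163 and 182 CPM in P133 mice (log2 -0.74, SE 0.15, adjusted p = 0.00423), a call lost with library totals (log2 -0.45). Hgfac (-0.25, adjusted p = 0.192) and Serpinf2 (0.12, adjusted p = 0.732) did not pass in this comparison, and C1s2, with 1 count in all P133 mice, did not pass either (adjusted p = 0.128). Cfd (1.59, adjusted p = 0.338), C3 (0.11) and Fgb (0.34) did not pass.

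Other genes of the same cascades were read as lists chosen for their roles, with earlier results of these data known. Of 24 further complement genes tested (28 listed), 4 rose and 3 fell in Smyd3-ASO over control-ASO mice, and of 23 further coagulation and fibrinolysis genes tested (30 listed), 6 rose and 2 fell, against 13.3% and 12.9% of all genes. Cd55, a membrane protein that breaks up C3 convertases, averaged 5.74 ± 2.20 CPM in Smyd3-ASO and 2.02 ± 0.651 CPM in control-ASO mice (SD, n = 6 each) and rose (log2 1.5, SE 0.30, adjusted p = 0.003), and so did Itgam, part of complement receptor 3 (log2 1.62, SE 0.46, adjusted p = 0.0199). Clu, clusterin, which holds back the terminal complex, fell (log2 -1.38, SE 0.24, adjusted p = 0.00114). Of the coagulation list, the thrombin receptor F2r (0.86), the plasminogen-binding S100a10 (1.17), the inhibitor Tfpi2 (0.98) and the urokinase receptor Plaur (1.54) rose. Summed levels of 9 neutrophil markers, a cell type that makes Itgam and Plaur, were 28.0 to 150.2 CPM in Smyd3-ASO and 26.1 to 54.5 CPM in control-ASO mice, and their part was not tested. Of 5 vitamin K cycle genes tested, on which F2, F7, F9, F10, Proc, Pros1 and Proz depend for carboxylation, Aifm2 alone changed (log2 0.74), and it rose.

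In control-ASO over untreated mice 1 of the 24 complement genes rose and 7 fell, and 7 of the 23 coagulation genes rose and 4 fell, against 23.7% and 22.2% of all genes. Cpn1, of the carboxypeptidase that inactivates anaphylatoxins and kinins, fell (log2 -1.47, SE 0.15, adjusted p = 4.30e-06), as did Vkorc1, the vitamin K epoxide reductase and warfarin target (log2 -1.72, SE 0.13, adjusted p = 4.58e-07), at 97.5 ± 13.6 CPM in control-ASO and 320.3 ± 37.9 CPM in untreated mice. Serpine2, a thrombin inhibitor (log2 2.83, SE 0.46, adjusted p = 3.86e-04), and Plat, tissue plasminogen activator (log2 3.11, SE 0.59, adjusted p = 6.85e-04), rose. Summed levels of 7 bile duct markers were 109 to 233 CPM in control-ASO and 15.1 to 30.7 CPM in untreated mice, without overlap, and their part was not tested. In Smyd3-ASO over untreated mice the counts were 6 risen and 11 fallen of 24, and 9 risen and 2 fallen of 23, against 24.4% and 23.2% of all genes. In P133 over untreated mice they were 5 risen and 3 fallen of 24, and 2 risen and 2 fallen of 23, against 15.1% and 16.6% of all genes, with Cd55 (2.00) and Serpine2 (4.58) higher and Cpn1 (-2.06) and Vkorc1 (-1.07) lower. In control-ASO over P133 mice 2 rose and 5 fell of 24, and 5 rose and 4 fell of 23, against 14.4% and 12.6% of all genes. Among the complement genes that fell were the Kupffer cell receptor Vsig4 (log2 -1.63, SE 0.22, adjusted p = 2.56e-04) and the ficolin Fcna (log2 -1.21, SE 0.14, adjusted p = 6.31e-05).

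Of 24 acute phase genes tested, 4 rose and 1 fell in Smyd3-ASO over control-ASO mice, against 13.3% and 12.9% of all genes. Orm1 (log2 2.36, SE 0.58, adjusted p = 0.0111), Orm2 (log2 3.16, SE 0.79, adjusted p = 0.0128) and Saa3 (log2 4.94, SE 1.51, adjusted p = 0.0317) rose, with Saa3 at 1430.5 CPM in Smyd3-ASO mouse 3 and at most 72.3 CPM in the other Smyd3-ASO mice, and ceruloplasmin (Cp) fell (log2 -1.10, SE 0.19, adjusted p = 0.00111). In control-ASO over untreated mice 2 rose and 2 fell (all genes: 23.7% and 22.2%), in Smyd3-ASO over untreated mice 2 rose and 2 fell (all genes: 24.4% and 23.2%), and in P133 over untreated mice 3 fell (all genes: 16.6%). Over P133 mice, 8 rose in control-ASO (all genes: 14.4%) and 5 in Smyd3-ASO mice (all genes: 13.1%). Of 19 hepatocyte transcription factor genes tested, 3 rose and 3 fell in Smyd3-ASO over control-ASO mice, against 13.3% and 12.9% of all genes: Onecut2 (1.54) and Cebpb (2.13) were among those that rose, and Cebpa (-0.69) and Foxa3 (-0.97) among those that fell. In control-ASO over untreated mice 2 rose and 8 fell, against 23.7% and 22.2% of all genes, Hnf4a (-1.01) and Cebpa (-1.32) with them.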

How the data were processed

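Liver RNA of 21 mice was sequenced in 35 QuantSeq 3′ libraries. Reads were aligned with HISAT2 2.1.0 to mm10 and DESeq was used, per the submitters' processing notes; the counter and annotation are not given in the sources used here. The authors deposited raw counts of 55413 Ensembl genes in 1 column per mouse, with the libraries of an ASO mouse summed, and a table of normalized values (used here as a score), each within rounding of the raw count divided by a size factor of its mouse; tests used the deposited raw counts.

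The mice were grouped by their titles. Each pair of groups was fitted on its own with edgeR 4.0.16 (R 4.3.3, limma 3.58.1), with TMM scaling, filterByExpr over all 4 groups (minimum count 10, minimum total count 15, which left 15297 genes), a robust quasi-likelihood fit and a two-sided test, with Benjamini-Hochberg adjustment over all genes tested and a threshold of 0.05. Standard errors were derived from the same fit as the log2 change divided by the square root of its F statistic. The pipeline was tested on simulated counts with known changes, at each fold in 66 or 67 of 15297 genes and in both directions. Over the 6 comparisons it recovered 0% to 8.96% of 1.5-fold, 17.9% to 53.7% of 2-fold and 71.2% to 90.9% of 4-fold changes. Of its calls 3.33% to 8% were false. In the data 24.8% to 47.6% of the genes tested were called, far more than were changed in the simulation. These rates thus hold for the simulated setting and not for the tests reported. A gene that did not pass is still not shown to be unchanged. Total counts were 4556484 to 20258619 per mouse; intervals and limits for counts of 0 (3 counts) cover counting error only. Labels say that mice are separate biological replicates.

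The alternatives were RLE size factors, library totals, DESeq2 1.42.0, no filter, all 4 groups in 1 fit, the replicate number as a block, and leaving out each mouse. The correlation of deviations from the group means between mice with the same number was -0.157 to 0.142, so the numbers were not taken to pair mice. The 52 genes and all lists were chosen with earlier results of these data known. Values in each mouse, or in groups of 6 the lowest, median and highest, are given in most comparisons for Cfd, C3, Fgb, the 10 genes with the smallest adjusted p in Smyd3-ASO over control-ASO mice and the 4 with the smallest in each other comparison; of other lists, up to 4 genes with the smallest adjusted p are named in a comparison. Promoter sequences are from RefSeq (GRCm38.p6), and gene positions are those of mm10.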

Additional observations from a re-analysis of the deposited data

Results flagged for a closer look

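Of 208 sets of values of 1 gene in 1 group, 23 held a mouse far from the others by Dixon's test, which chance gives for about 1 in 20 sets. Untreated mouse 5 was the highest in 12 of them: C1qc (60.9 CPM), C8a (645 CPM), Cfb (3407 CPM), C4bp (966 CPM), F10 (324 CPM), Fga (7315 CPM), Fgb (30867 CPM), Fgg (8956 CPM), Kng1 (1900.4 CPM), Pros1 (97.6 CPM), Cpb2 (1228 CPM) and Vtn (5392 CPM). The other untreated mice had 10231 CPM of Fgb and 2295 CPM of Vtn at most. Saa1 was 30504 CPM in the same mouse and at most 695 CPM in the other untreated mice, and its part in these levels was not tested.

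Smyd3-ASO mouse 5 was the highest of its group for C1s2 (4.68 CPM), F12 (334 CPM) and Proz (56.8 CPM). Among control-ASO mice, mouse 6 was the highest for C1qb (26.2 CPM), mouse 5 the highest for C2 (66.8 CPM) and mouse 3 the lowest for C4bp (408 CPM). Among P133 mice, mouse 3 was the highest for C3 (2496 CPM) and Hc (882 CPM), mouse 4 for Kng2 (153 CPM) and mouse 1 for C1s2 (0.210 CPM, a single count). Untreated mouse 3 held the only count of Cfd in its group (0.156 CPM).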

How the results depend on the processing

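With library totals in place of TMM the numbers of the 52 genes that rose and fell were 22 and 8 in control-ASO over untreated, 16 and 13 in Smyd3-ASO over untreated, 11 and 14 in P133 over untreated, 21 and 5 in control-ASO over P133, and 11 that rose in Smyd3-ASO over P133 mice; this scaling moves the median of all genes, as given with each comparison. With all 4 groups in 1 fit, 1 gene rose in P133 over untreated mice. Leaving out 1 mouse at a time, the numbers that rose and fell ranged over 3 to 6 and 7 to 13 in Smyd3-ASO over control-ASO, 2 to 4 and 21 to 25 in control-ASO over untreated (2 rose without untreated mouse 2 or 3), 3 to 4 and 25 to 32 in Smyd3-ASO over untreated, 1 to 5 and 21 to 29 in P133 over untreated (1 rose without P133 mouse 1, 3 or 4 or untreated mouse 2, 3 or 4, and 5 rose without untreated mouse 5), 9 to 12 and 5 to 11 in control-ASO over P133 (5 fell without P133 mouse 2 or 4), and 4 to 6 and 8 to 12 in Smyd3-ASO over P133 mice. In Smyd3-ASO over control-ASO mice the log2 change of C3, which did not pass, ranged from -0.24 to 0.0302 and that of Fgb from -0.48 to 0.0233, and in Smyd3-ASO over P133 mice that of C3 from -0.0304 to 0.22, so their signs rest on single mice; the cause of these and the other changes was not tested. Of the called genes, 10 of 16 in Smyd3-ASO over control-ASO, 10 of 28 in control-ASO over untreated, 16 of 36 in Smyd3-ASO over untreated, 15 of 29 in P133 over untreated, 11 of 19 in control-ASO over P133 and 10 of 14 in Smyd3-ASO over P133 mice kept their call in every alternative run. The 6 others in Smyd3-ASO over control-ASO mice were C1ra, C1rb, F7, F13b, F9 and Hc.

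The replicate numbers were not taken to pair the mice. In a fit with the replicate block, 7 genes fell in Smyd3-ASO over control-ASO mice, 4 rose in P133 over untreated mice, and 7 rose and 5 fell in control-ASO over P133 mice; in no comparison did more than 1 mouse correlate best with the mouse of its own number. Depth limits Cfd in untreated mice and C1s2 in P133 mice, where a whole group holds 1 count.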

Other observations

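Other partner genes differed in how closely they followed each other. As a description after subtracting group means over the 21 mice, which share libraries and depth, Pearson's correlation was 0.950 for C1ra with C1rb, 0.775 for C8a with C8b, 0.759 for C1qb with C1qc, 0.307 for C1qa with C1qb and 0.0751 for F12 with F11. Of the 50-base stretches in the last 500 bases, 19.1% of those of C1ra occur in C1rb and 43.2% of those of C1rb in C1ra. The part of shared reads in their correlation was not tested.

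The C8 chains, which join the membrane attack complex together, were counted in unequal proportion. The ratio of C8a to C8b counts was 3.06 to 6.64 in Smyd3-ASO, 4.31 to 7.01 in control-ASO, 3.06 to 3.79 in P133 and 1.41 to 2.71 in untreated mice, so the 16 DEN mice lay above the 5 untreated mice. The ratio of C8g to C8b counts did not part them, at 1.16 to 2.00 in Smyd3-ASO, 1.61 to 3.48 in control-ASO, 1.95 to 2.98 in P133 and 0.789 to 1.52 in untreated mice. The ratio of C1qc to C1qb counts, 1.45 to 2.21 in Smyd3-ASO, 1.45 to 2.24 in control-ASO, 1.38 to 2.29 in P133 and 0.586 to 0.790 in untreated mice, parted the mice as C8a to C8b did. These ratios were chosen after the values were seen and were not tested.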
